A study of Mus musculus and Homo sapiens with 12 samples.

Results

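The glycine tRNA isoacceptors tRNA-Gly-CCC, tRNA-Gly-GCC and tRNA-Gly-TCC were examined in a genome-wide tRNA-charging assay of 12 libraries. An isoacceptor here is the sum of all tRNA genes whose name holds tRNA-Gly- followed by the same anticodon. This rule found 9 of the 224 tRNA genes in the files of the MEF libraries, of which 4 were tRNA-Gly-CCC, 4 were tRNA-Gly-GCC and 1 was tRNA-Gly-TCC. In the NTERT libraries it found 12 of 260 genes, of which 3 were tRNA-Gly-CCC, 5 were tRNA-Gly-GCC and 4 were tRNA-Gly-TCC. A further mouse gene, tRNA-Gly-ACC-1-1, matched the name but none of these anticodons, and had only 14 to 194 reads per library. It was included in the sum of all glycine tRNAs, called Gly combined.

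MEF cells, which are mouse embryonic fibroblasts, either received no drug (NT) or 100 nM of halofuginone (HF), which inhibits prolyl-tRNA synthetase. Both MEF groups were kept in high-glucose DMEM with dialyzed serum for the same time, which the sample labels give as 6 h and the legends of the study as 3 h. NTERT cells, which are immortalized human keratinocytes, were left untreated (NT) or exposed to 400 J/m2 of UV-B, and both NTERT groups were collected after 3 h. Each of the 4 groups had 3 libraries. The study calls the MEF libraries biological replicates and makes a general statement of biological replication for its results, whereas the labels do not describe the cultures behind the libraries. The question was which tRNAs lose their amino acid under each stress, and the glycine tRNAs were set against this question in both cell types, with no test between the mouse and the human cells, which were counted on different references.

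Glycyl-tRNA synthetase, an enzyme of class II, joins glycine to all of these tRNAs. The tRNA-Gly-GCC isoacceptor reads the GGC and GGU codons, tRNA-Gly-TCC reads GGA and can read GGG, and tRNA-Gly-CCC reads GGG. Glycine itself is made in the cell from serine, and tRNA-Gly-GCC is among the most abundant tRNAs of mammalian cells and a well-known source of tRNA-derived fragments. In the charging assay, periodate treatment costs a tRNA that carries no amino acid its last nucleotide, whereas a bound amino acid protects it. Reads with a final CCA were thus taken as charged and those that stop at CC as uncharged, and the percentage charged is the charged reads over the sum of both. Reads that stop elsewhere carry no information on charging.

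The MEF libraries held 617693 to 6286863 tRNA reads and the NTERT libraries 253693 to 1992671. A CCA or CC end was found on 86.9 to 96.6% of the tRNA reads in MEF cells and on 47.2 to 62.8% in NTERT cells. tRNA took 3.43 to 9.52% of all reads in the NT libraries of MEF cells and 19.1 to 27.8% in the HF libraries. The percentage charged of the proline tRNAs, the substrates of the synthetase that HF inhibits, was 42.1 to 55.5% in NT and 8.18 to 29.9% in HF. The widest 95% Wilson interval for a glycine isoacceptor in a library spanned 1.23 percentage points in MEF and 2.83 in NTERT cells, and such intervals cover counting error only, since reads copied by PCR are not independent molecules.

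In the mouse genome (GRCm38), RefSeq places 28 glycine tRNA loci of 71 to 74 bases on 9 chromosomes. Of these, 14 have the anticodon of tRNA-Gly-GCC, 7 that of tRNA-Gly-TCC, 6 that of tRNA-Gly-CCC and 1 that of tRNA-Gly-ACC. A run of 9 loci, 4 of them tRNA-Gly-GCC and 5 tRNA-Gly-TCC in alternation, lies on chromosome 1 between positions 171037997 and 171102827, a span of 64831 bases. Outside annotated genes lie 19 of the 28 loci, whereas 7 lie in introns, among them n-TGgcc11 in an intron of Vac14 on chromosome 8 from 110630553 to 110630623. The other 2 overlap exons, n-TGtcc1 in Fcgr3 on chromosome 1 from 171064699 to 171064770 and n-TGccc7 in Mettl26 on chromosome 17 from 25875088 to 25875158. The files hold 10 mouse glycine genes, fewer than these loci. The study describes the removal of duplicate sequences only for its human reference. Whether a mouse gene of the files stands for several loci was not tested, and the symbols of RefSeq were not paired with the gene numbers of the files.

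In MEF cells the mean percentage charged of each glycine tRNA was higher with HF than without it, but no difference passed the test. tRNA-Gly-CCC was charged at 82.5%, 68.7% and 88.8% in NT libraries 1 to 3 and at 93.3%, 93.7% and 85.8% in HF libraries 1 to 3. HF libraries 1 and 2 thus lay above all NT libraries, and HF library 3 lay below NT library 3, so that the groups overlapped. The means were 80.0% ± 10.3 in NT and 90.9% ± 4.42 (SD, n = 3 each) in HF. On the log2 scale of charged over uncharged reads, HF was higher by 1.31 (standard error 0.73, 95% interval −0.12 to 2.74, adjusted p = 0.145 in limma), which did not pass the threshold of 0.05.

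tRNA-Gly-GCC, which has the most reads, was charged at 80.2%, 63.2% and 87.9% without HF and at 90.1%, 91.7% and 86.0% with it. Its means were 77.1% ± 12.6 and 89.3% ± 2.96 (SD, n = 3 each), and its log2 ratio differed by 1.20 (95% interval −0.23 to 2.64, adjusted p = 0.166 in limma). For tRNA-Gly-TCC the NT libraries gave 80.2%, 66.4% and 87.7% and the HF libraries 92.3%, 90.3% and 87.2%. The means of tRNA-Gly-TCC were 78.1% ± 10.8 and 89.9% ± 2.58 (SD, n = 3 each), with a difference of 1.24 on the log2 scale (95% interval −0.19 to 2.67, adjusted p = 0.166 in limma). All 3 isoacceptors had the same order of libraries in the NT group, with NT library 2 the lowest and NT library 3 the highest, and for all 3 the HF libraries overlapped the NT libraries. Gly combined went from 77.7% ± 11.95 to 89.7% ± 3.07 (SD, n = 3 each), a log2 difference of 1.23 (standard error 0.72, 95% interval −0.19 to 2.66, adjusted p = 0.142 in limma).

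None of the 3 glycine isoacceptors was called, where 9 of the 48 tested isoacceptors, or 18.8%, passed the threshold, 6 of them higher and 3 lower in HF. Of the 21 amino acids, 2 passed (9.52%), and glycine was not among them. The groups did not overlap for 14 of the 48 isoacceptors (29.2%), and for none of the glycine isoacceptors. These values moved with the libraries as a whole, since the median percentage charged over the tested isoacceptors was 55.7 to 80.7% in the NT libraries and 78.9 to 90.1% in the HF libraries, and 45 of the 48 isoacceptors had a higher value in HF, with a median difference of 1.21 on the log2 scale. With the median of each library subtracted, the differences of the glycine isoacceptors were −0.049 for tRNA-Gly-CCC, −0.15 for tRNA-Gly-GCC and −0.12 for tRNA-Gly-TCC, with standard errors of 0.26 to 0.30 and adjusted p-values of 0.818 to 0.934 in limma. By size of the change they ranked 28, 24 and 27 from the lowest of 48, near the middle. The part that the share of reads on tRNA, which also differed between the groups, had in these values was not tested.

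The NT library 3 decided whether a glycine value passed in MEF cells. Without it, tRNA-Gly-CCC differed by 1.75 (adjusted p = 0.0477 in limma) and Gly combined by 1.70 (adjusted p = 0.0331 in limma), and both passed, whereas tRNA-Gly-GCC and tRNA-Gly-TCC had adjusted p-values of 0.0512. With each other library left out in turn, no glycine value passed. The number of isoacceptors called over all tested ranged from 0, without NT library 1 or without HF library 2, to 22 of 48 without NT library 3. The amino acids called without NT library 3 were not counted, so the call of Gly combined has no such background.

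**Figure D1:**
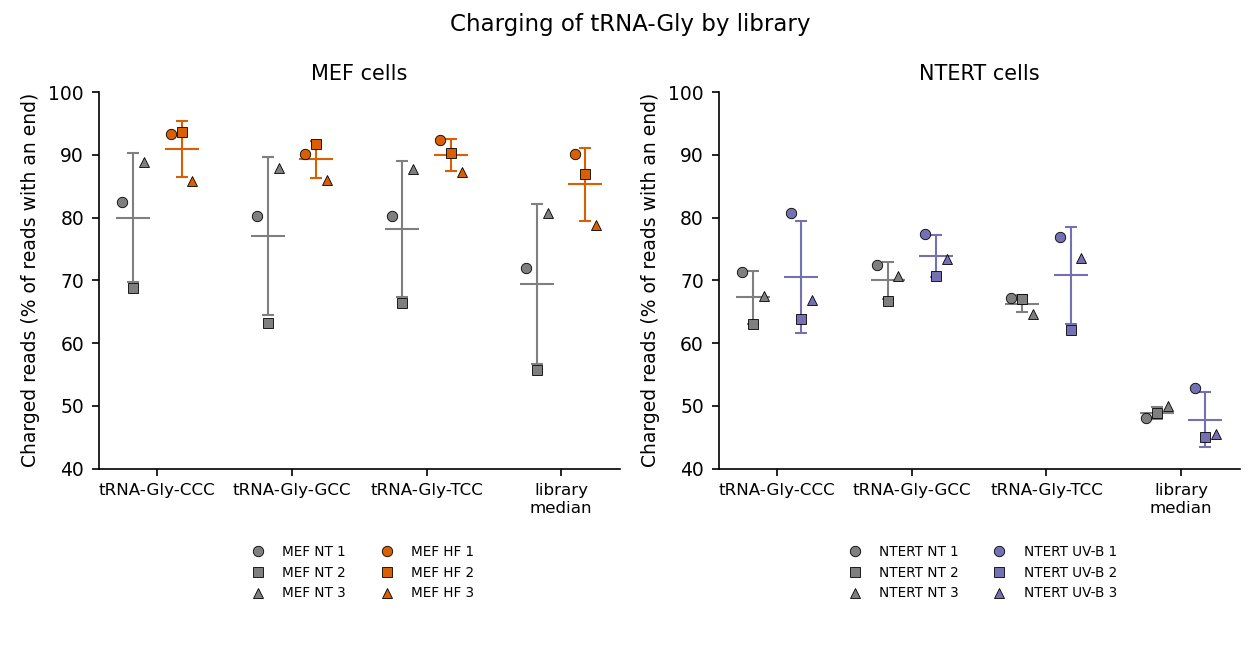
Percentage of charged reads (y axis, percent of the reads with a CCA or CC end, shown from 40 to 100) of the 3 glycine isoacceptors and the median of the tested isoacceptors, with a point for each library and bars for the mean ± SD of 3 libraries. The NT and HF libraries of MEF cells overlap for each isoacceptor, and in NTERT cells every glycine point lies above the library medians of 45.0 to 52.8%.

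In NTERT cells, the glycine tRNAs were charged well above the median isoacceptor with and without UV-B, and no difference between the groups passed the threshold. tRNA-Gly-CCC was charged at 71.3%, 63.0% and 67.5% in NT libraries 1 to 3, against 80.7%, 63.9% and 66.9% in UV-B libraries 1 to 3. Only UV-B library 1 lay above the NT libraries, and the means were 67.3% ± 4.17 and 70.5% ± 8.98 (SD, n = 3 each). On the log2 scale of charged over uncharged reads, the difference was 0.26 (standard error 0.40, 95% interval −0.66 to 1.17, adjusted p = 0.986 in limma). Without UV-B library 1 the difference was −0.12, so that its sign rested on this library.

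tRNA-Gly-GCC gave 72.5%, 66.7% and 70.7% without UV-B, against 77.5%, 70.8% and 73.4% after it. The groups overlapped, since UV-B library 2 lay below NT library 1, and the means were 70.0% ± 2.95 and 73.9% ± 3.37 (SD, n = 3 each). The difference was 0.28 on the log2 scale (standard error 0.29, 95% interval −0.40 to 0.96, adjusted p = 0.986 in limma). For tRNA-Gly-TCC the NT libraries lay close together at 67.2%, 67.0% and 64.7%, whereas the UV-B libraries spread from 62.1% in library 2 to 73.6% in library 3 and 76.8% in library 1. Its means were 66.3% ± 1.38 and 70.8% ± 7.74 (SD, n = 3 each), with a log2 difference of 0.33 (standard error 0.34, 95% interval −0.46 to 1.12, adjusted p = 0.986 in limma). Gly combined was charged at 68.5% ± 2.28 in NT and 72.6% ± 5.32 (SD, n = 3 each) under UV-B, a difference of 0.30 (95% interval −0.37 to 0.96, adjusted p = 0.924 in limma).

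In limma, 0 of the 47 tested isoacceptors (0%) and 0 of the 21 amino acids (0%) passed in NTERT cells, and 0 of either had an unadjusted p below 0.05. The groups did not overlap for 2 of the 47 isoacceptors (4.26%), neither of them a glycine isoacceptor. The median isoacceptor was charged at 48.0 to 49.9% in the NT libraries and 45.0 to 52.8% in the UV-B libraries. The glycine isoacceptors exceeded the median of their own library by 14.2 to 24.5 percentage points in NT and by 17.1 to 28.1 under UV-B, and each ranked between 3 and 13 from the top of the 47 isoacceptors in every library. With the library median subtracted, the differences were 0.33, 0.35 and 0.40 for tRNA-Gly-CCC, tRNA-Gly-GCC and tRNA-Gly-TCC, each with an adjusted p of 0.935 in limma. For Gly combined the difference was then 0.64 (standard error 0.23), with an unadjusted p of 0.0282 and an adjusted p of 0.351 in limma, which did not pass. That fit took its library medians over the 21 amino acids, of which 19 were then higher under UV-B, with a median of 0.30 and 2 at an unadjusted p below 0.05, so its value and those of the isoacceptors are relative to different medians.

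**Figure D2:**
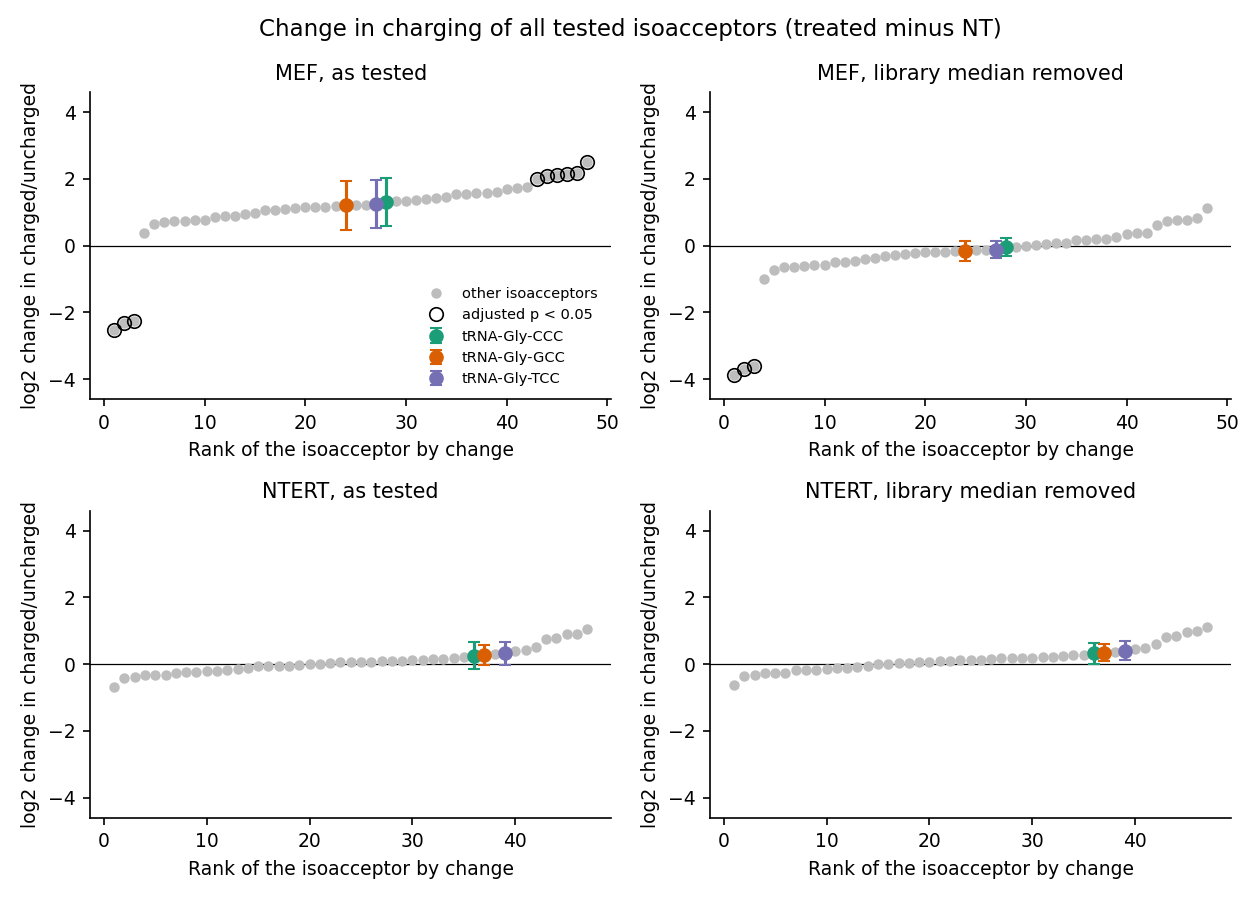
Change in charged over uncharged reads (y axis, log2) of all tested isoacceptors, ranked from the lowest to the highest (x axis), for HF against NT in MEF cells (top) and UV-B against NT in NTERT cells (bottom), as tested (left) and with the library median removed (right). Bars are standard errors of the glycine isoacceptors and rings mark an adjusted p below 0.05 in limma. The glycine isoacceptors lie at ranks 24 to 28 of 48 in MEF cells, at 1.20 to 1.31 as tested and −0.15 to −0.049 with the median removed, and at ranks 36 to 39 of 47 in NTERT cells.

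The order of the 3 isoacceptors by charging was not the same in all libraries and was not tested. In the MEF libraries tRNA-Gly-CCC was the most charged of the 3 on average, and tRNA-Gly-GCC exceeded it in only 1 of 6 libraries, with differences of −5.51 to 0.12 percentage points. In the NTERT libraries tRNA-Gly-GCC was the most charged on average and exceeded tRNA-Gly-CCC in 5 of 6 libraries, by −3.29 to 6.85 percentage points. tRNA-Gly-TCC and tRNA-Gly-CCC had no steady order in NTERT cells, where tRNA-Gly-TCC was higher in 2 of 6 libraries. Among the 48 isoacceptors of MEF cells, tRNA-Gly-CCC ranked 2 to 11 from the top by percentage charged, tRNA-Gly-GCC 6 to 25 and tRNA-Gly-TCC 7 to 17, depending on the library.

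For each glycine isoacceptor, the isoacceptor of another amino acid most like it in percentage charged differed between the cell types. tRNA-Asn-GTT and tRNA-Lys-TTT were among the 3 nearest to a glycine isoacceptor in both cell types. Likeness was the root mean square difference in percentage charged over the 6 libraries of a cell type. In MEF cells, tRNA-Arg-CCG was nearest to tRNA-Gly-CCC at 1.47 percentage points, followed by tRNA-Gln-CTG at 2.00 and tRNA-Lys-TTT at 2.84. tRNA-Gln-CTG was nearest to tRNA-Gly-GCC at 1.95, before tRNA-Ala-CGC at 2.49 and tRNA-Asn-GTT at 2.58. It was also nearest to tRNA-Gly-TCC at 1.72, before tRNA-Arg-CCG at 2.16 and tRNA-Trp-CCA at 2.61. The glycine isoacceptors differed from each other by 1.77 to 2.90 percentage points on the same measure, so these neighbours were as near as the glycine tRNAs were among themselves.

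In NTERT cells, tRNA-Lys-CTT was nearest to all 3 glycine isoacceptors, at 5.23 percentage points from tRNA-Gly-CCC, 2.63 from tRNA-Gly-GCC and 5.32 from tRNA-Gly-TCC. The next were tRNA-GlT-CTC and tRNA-Asn-GTT, both at 6.42, for tRNA-Gly-CCC. For tRNA-Gly-GCC they were tRNA-Asn-GTT at 5.50 and tRNA-Lys-TTT at 5.65, and for tRNA-Gly-TCC tRNA-Asn-GTT at 5.74 and tRNA-Arg-CCT at 6.20. The name tRNA-GlT-CTC is spelled as in the files. Among themselves the glycine isoacceptors of NTERT cells differed by 4.14 to 4.82 percentage points.

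The 4 tRNA-Ser isoacceptors, whose amino acid is the main source of glycine, and the isoacceptors of the amino acids of class II synthetases were set beside the glycine tRNAs by their counts. None of the 4 tRNA-Ser isoacceptors passed for charging in limma, where 18.8% of all isoacceptors passed in MEF cells and 0% in NTERT cells. Their median difference was 0.76 in MEF cells, where it was 1.21 over all isoacceptors, and −0.33 in NTERT cells, where it was 0.061 over all. The study, in contrast, reports a significant loss of charging of tRNA-Ser-TGA after UV-B, which it also measured by qRT-PCR. Here tRNA-Ser-TGA differed by −0.33 in NTERT cells (adjusted p = 0.986 in limma). The test named in the methods called 0 of the 47 isoacceptors when run here, and the reason for this departure was not tested. In MEF cells 23 isoacceptors of class II amino acids were tested, glycine included, with 1 called higher, tRNA-Ala-AGC, and 3 called lower, the tRNA-Pro isoacceptors, against the 9 of 48 (18.8%) called over all isoacceptors, and with a median difference of 1.07. tRNA-Ala-AGC is named here after its value was seen, and differed by 1.98 (adjusted p = 0.0367 in limma). With the library median removed it differed by 0.62 (adjusted p = 0.523 in limma) and was not called, and 0 isoacceptors were called with a replicate block. In NTERT cells 0 of the 22 class II isoacceptors passed in limma, with a median difference of 0.062, against 0.061 over all isoacceptors.

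Single glycine tRNA genes were uneven in their reads. How far the reads of similar genes can be told apart was not tested, and the values of single genes are uncertain for this reason. In MEF cells, tRNA-Gly-GCC-2-1 held 52.5% ± 1.38 of the tRNA-Gly-GCC reads in NT and 52.7% ± 0.27 (SD, n = 3 each) in HF, and tRNA-Gly-GCC-4-1 held 38.4% ± 0.60 and 39.6% ± 0.47 (SD, n = 3 each). tRNA-Gly-CCC-1-1 held 74.9% ± 4.08 of the tRNA-Gly-CCC reads in NT and 81.6% ± 2.18 (SD, n = 3 each) in HF, and tRNA-Gly-TCC had a single gene. In NTERT cells tRNA-Gly-GCC-1-1 led its isoacceptor with 60.8% ± 0.52 in NT and 58.9% ± 1.27 (SD, n = 3 each) under UV-B, and tRNA-Gly-TCC-2-1 led with 75.9% ± 0.54 and 73.3% ± 1.42 (SD, n = 3 each). The share of tRNA-Gly-CCC-1-1 varied more, at 75.5% ± 10.3 in NT and 60.1% ± 8.54 (SD, n = 3 each) under UV-B. Gene numbers follow the files of each species, so the same number in mouse and human does not name the same sequence.

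All 9 mouse glycine genes passed the minimum of a mean of 50 reads with an end, and 0 of the 9 were called for charging in limma, where 20 of 139 tRNA genes, or 14.4%, were called. tRNA-Gly-CCC-1-1 went from 84.2%, 68.6% and 89.3% in NT to 94.3%, 94.4% and 86.0% in HF, with a log2 difference of 1.38 (adjusted p = 0.156 in limma). Without NT library 3 it was the 1 glycine gene called, with a difference of 1.81 and an adjusted p of 0.0488 in limma, in a fit that called 64 of 140 tRNA genes. tRNA-Gly-GCC-2-1 gave 80.3%, 63.7% and 88.1% in NT and 90.2%, 91.5% and 85.9% in HF, and tRNA-Gly-GCC-4-1 gave 80.1%, 63.6% and 87.8% and then 90.3%, 91.9% and 86.3%. These genes, from which most tRNA-Gly-GCC reads came, had nearly the same percentage in each library.

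tRNA-Gly-CCC-3-1 and tRNA-Gly-CCC-2-1 ranged over 68.3 to 89.6% and 70.2 to 90.7%, and tRNA-Gly-GCC-1-1 over 63.9 to 92.6%. The log2 differences of the 9 genes lay between 0.67 for tRNA-Gly-CCC-4-1 and 1.38 for tRNA-Gly-CCC-1-1, where the median over the 139 genes was 1.30. tRNA-Gly-CCC-4-1, with a mean of 304 reads with an end, was the least charged of the 4 tRNA-Gly-CCC genes in 6 of 6 libraries, from 63.7 to 87.5%. tRNA-Gly-GCC-3-1 was the least charged of the 4 tRNA-Gly-GCC genes in 6 of 6 libraries, from 49.6 to 90.3%. It also had the lowest percentage of reads with an end of these 4 genes in 6 of 6 libraries, from 60.1 to 88.4%.

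In NTERT cells, 9 of the 12 glycine genes passed the minimum, and 0 of the 9 were called in limma, where 0 of 168 tRNA genes (0%) were called and 3 had an unadjusted p below 0.05. For tRNA-Gly-GCC and tRNA-Gly-TCC, the genes that carry most reads had percentages charged near those of their isoacceptors. In UV-B library 1 tRNA-Gly-CCC-1-1 lay well below its isoacceptor, at 69.3% against 80.7%. tRNA-Gly-GCC-1-1 gave 73.1%, 68.4% and 72.0% in NT and 78.0%, 73.5% and 73.4% under UV-B, with a log2 difference of 0.28 (adjusted p = 0.999 in limma). tRNA-Gly-GCC-2-1 gave 72.1%, 69.9% and 70.8% in NT and 80.3%, 67.6% and 74.1% under UV-B. Across the 6 libraries tRNA-Gly-TCC-2-1 ranged from 62.0 to 76.4%, tRNA-Gly-TCC-1-1 from 61.8 to 75.5% and tRNA-Gly-TCC-3-1 from 64.4 to 83.4%, and the last was the most charged of these 3 genes in 6 of 6 libraries.

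Within tRNA-Gly-CCC, the high value in UV-B library 1 came with a single gene. UV-B library 1 also had the highest value of the NTERT libraries for tRNA-Gly-GCC (77.5%), tRNA-Gly-TCC (76.8%) and the library median (52.8%). tRNA-Gly-CCC-2-1 was charged at 92.1% there (2395 reads with an end, 95% Wilson interval 90.9 to 93.1%) and at 63.2 to 74.9% in the other 5 libraries. tRNA-Gly-CCC-1-1 was charged at 69.3% in the same library and at 60.5 to 71.6% over all 6. Its log2 difference between the groups was 0.12 and that of tRNA-Gly-CCC-2-1 was 0.42, both with an adjusted p of 0.999 in limma.

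The human glycine genes with few reads had low percentages charged. tRNA-Gly-GCC-3-1 gave 28.4%, 1.56% and 11.8% in NT and 10.7%, 13.9% and 22.7% under UV-B, on 137 to 576 reads with an end per library. tRNA-Gly-GCC-5-1 ranged from 1.22 to 9.68% on 31 to 329 such reads. The genes under the minimum are named here after their values were seen. They were tRNA-Gly-GCC-4-1 at 0 to 33.3%, tRNA-Gly-TCC-4-1 at 5.26 to 25% and tRNA-Gly-CCC-3-1 at 0 to 42.9%, with at most 31, 25 and 9 reads with an end in a library. The value of 0 for tRNA-Gly-GCC-4-1 rested on 5 reads (95% Wilson interval 0 to 43.4%).

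With the 6 libraries summed, tRNA-Gly-GCC-3-1 was charged at 12.7% and tRNA-Gly-GCC-5-1 at 2.11%. The 74 other genes with a mean of 50 to 500 reads with an end had a median of 42.0% and ranged from 8.61 to 81.5%, so tRNA-Gly-GCC-5-1 lay below all of them. Only 20.5% of the reads of tRNA-Gly-GCC-3-1 and 19.5% of those of tRNA-Gly-GCC-5-1 had a CCA or CC end, where the median of those 74 genes was 49.7%. These genes carried little of their isoacceptor, 0.998 to 3.74% of the tRNA-Gly-GCC reads for tRNA-Gly-GCC-3-1 and 0.371 to 2.09% for tRNA-Gly-GCC-5-1. In MEF cells the glycine genes with a mean under 500 reads with an end, tRNA-Gly-CCC-4-1 and tRNA-Gly-ACC-1-1, were charged at 76.8% and 88.5% with the libraries summed. These sums mix NT and HF libraries. In single libraries tRNA-Gly-ACC-1-1 ranged from 60 to 92.9% on 10 to 183 reads with an end.

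**Figure D3:**
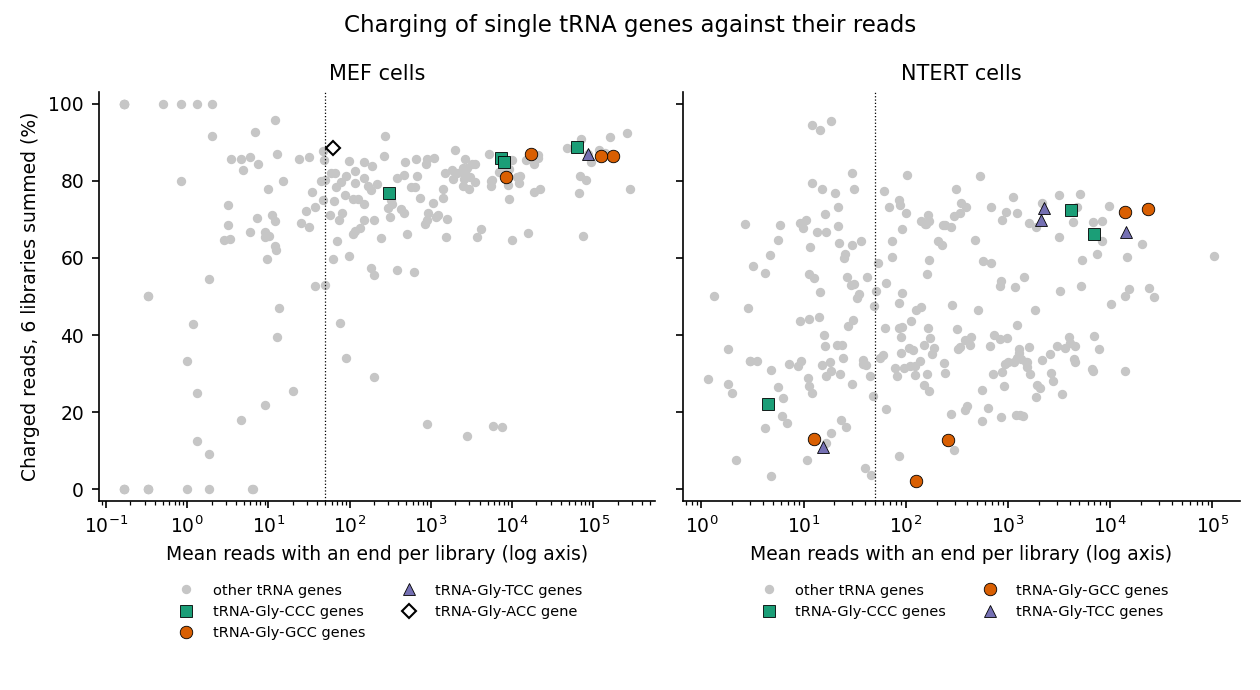
Percentage charged of each tRNA gene with the 6 libraries of a cell type summed (y axis) against its mean number of reads with an end per library (x axis, log scale), with the glycine genes in color, other genes in gray and a dotted line at the minimum of 50 reads. In MEF cells the glycine genes lie between 76.8 and 88.9%, whereas in NTERT cells 7 lie between 66.3 and 72.9% and 5 with few reads lie between 2.11 and 22.2%.

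The percentage of glycine tRNA reads that had a CCA or CC end rose with HF in MEF cells for all 3 isoacceptors. tRNA-Gly-CCC had such an end on 94.6%, 91.7% and 94.4% of its reads in the NT libraries and on 97.3%, 98.0% and 96.6% in the HF libraries. tRNA-Gly-GCC rose from 90.2%, 81.9% and 92.3% to 94.8%, 95.9% and 95.2%, and tRNA-Gly-TCC from 95.4%, 92.7% and 94.9% to 97.7%, 97.4% and 97.5%. Every HF library lay above every NT library for each of the 3. On the log2 scale of reads with against without an end, the differences were 1.30 for tRNA-Gly-CCC (standard error 0.47, adjusted p = 0.0117), 1.36 for tRNA-Gly-GCC (adjusted p = 0.00875) and 1.22 for tRNA-Gly-TCC (adjusted p = 0.0158), all in limma. As this fit shares the variance over isoacceptors that rose together, these p-values can be too small for 3 libraries against 3.

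The rise was shared by most isoacceptors, with 46 of the 48 tested higher in HF and 2 lower. Of the 48 isoacceptors tested, 38 passed (79.2%), all of them higher in HF, and the groups did not overlap for 35 (72.9%), so the 3 of 3 glycine isoacceptors did not stand apart from this background. With the library median subtracted, the differences fell to 0.23, 0.29 and 0.14 for tRNA-Gly-CCC, tRNA-Gly-GCC and tRNA-Gly-TCC, with adjusted p-values of 0.561 to 0.701 in limma, and 0 of 48 isoacceptors passed, with 13 at an unadjusted p below 0.05. Without HF library 2, tRNA-Gly-CCC did not pass (adjusted p = 0.0741 in limma), and without HF library 1, tRNA-Gly-TCC did not (adjusted p = 0.0527 in limma). In every MEF library tRNA-Gly-GCC had a lower percentage of reads with an end than tRNA-Gly-CCC, by 1.38 to 9.85 percentage points, and than tRNA-Gly-TCC, by 1.46 to 10.8.

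Among NTERT libraries the percentages of reads with an end were lower and did not differ beyond the spread. For tRNA-Gly-CCC they were 50.2%, 32.0% and 43.0% in NT and 51.3%, 47.4% and 52.5% under UV-B, with NT library 2 the lowest. They were 55.1%, 47.1% and 50.1% against 51.8%, 53.3% and 55.6% for tRNA-Gly-GCC, and 57.4%, 51.6% and 55.0% against 57.3%, 57.5% and 56.6% for tRNA-Gly-TCC. The log2 differences were 0.52, 0.16 and 0.14, with adjusted p-values of 0.675, 0.816 and 0.816 in limma. Here 0 of the 48 isoacceptors passed in limma (0%), with 3 at an unadjusted p below 0.05, and the groups did not overlap for 6 of 48 (12.5%), none of them glycine. In 6 of 6 libraries tRNA-Gly-CCC had the lowest percentage of the 3 and tRNA-Gly-TCC the highest. The percentages charged in NTERT cells therefore rested on 32.0 to 57.5% of the glycine tRNA reads, against 81.9 to 98.0% in MEF cells.

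**Figure D4:**
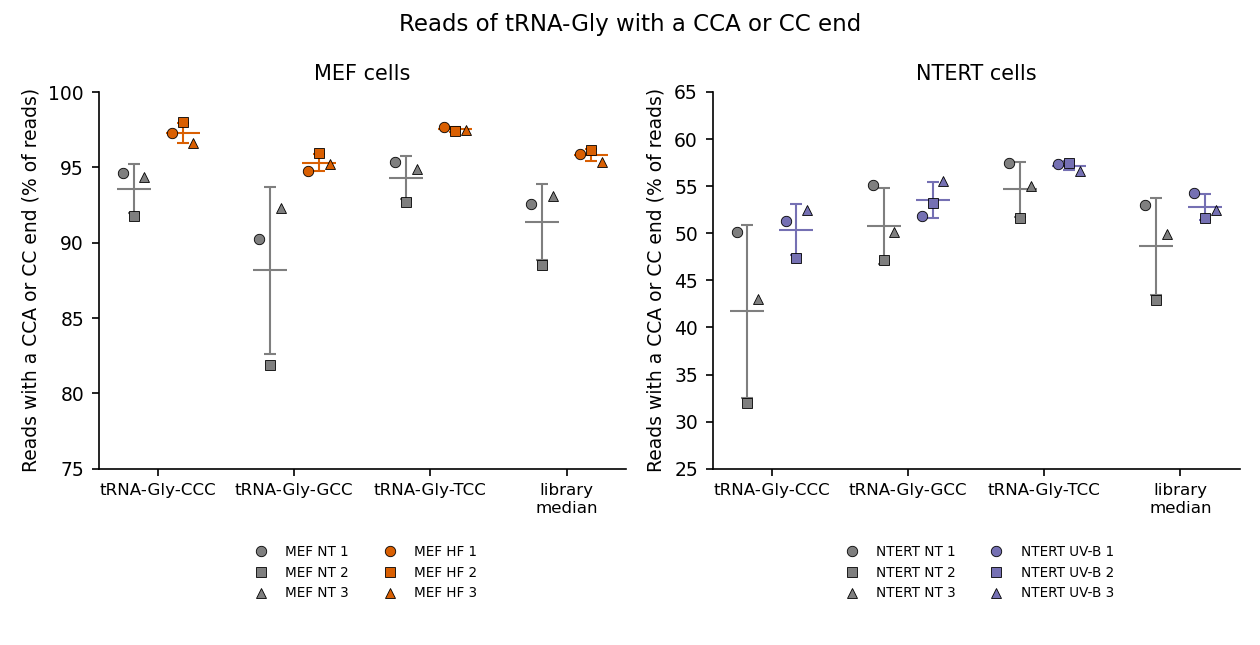
Percentage of the reads of each glycine isoacceptor that had a CCA or CC end (y axis, 75 to 100 in MEF and 25 to 65 in NTERT cells), beside the median of the tested isoacceptors, with a point for each library and bars for the mean ± SD of 3 libraries. The HF libraries lie above all NT libraries for the 3 isoacceptors and for the median, and the NTERT groups overlap.

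Glycine tRNAs took a large share of all tRNA reads. Gly combined held 25.8% ± 2.05 of the tRNA reads in NT and 21.2% ± 5.88 (SD, n = 3 each) in HF libraries of MEF cells, and 19.1% ± 5.56 in NT and 14.3% ± 4.57 (SD, n = 3 each) in UV-B libraries of NTERT cells. tRNA-Gly-GCC alone took 17.5%, 19.9% and 17.0% in the NT and 16.3%, 16.1% and 9.19% in the HF libraries of MEF cells. HF library 3 was the lowest, and before scaling no HF library reached the lowest NT library, which was so, in 1 direction or the other, for 12 of 48 isoacceptors (25%), and which did not hold for tRNA-Gly-GCC after the TMM scaling used in the test. By reads tRNA-Gly-GCC ranked between 1 and 5 of 48 in the MEF libraries and between 2 and 6 in the NTERT libraries. A share of reads is relative, so fewer molecules of a tRNA and more of the others cannot be told apart.

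After scaling by TMM, no share changed beyond the spread in MEF cells. The log2 differences between HF and NT were 0.067 for tRNA-Gly-CCC, −0.28 for tRNA-Gly-GCC and 0.018 for tRNA-Gly-TCC, each with a standard error of 0.35 and with adjusted p-values of 0.656 to 0.958 in limma. The signs for tRNA-Gly-CCC and tRNA-Gly-TCC turned to −0.085 and −0.13 on library totals without TMM, and the median over all isoacceptors moved from 0.090 to −0.062 between these scalings. tRNA-Gly-CCC took 3.66%, 4.09% and 3.29% of the reads in NT and 4.001%, 4.55% and 2.27% in HF, and tRNA-Gly-TCC 4.43%, 3.96% and 3.66% in NT and 4.74%, 3.47% and 2.96% in HF. Over all isoacceptors 7 of 48 passed (14.6%), 6 higher and 1 lower, which became 1 lower on library totals, and 0 of the 21 amino acids passed in limma (0%), with 7 at an unadjusted p below 0.05. The groups did not overlap for 13 of 48 isoacceptors after scaling (27.1%), none of them glycine.

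For NTERT cells, all 3 shares were lower under UV-B on average, and none passed the threshold. tRNA-Gly-CCC took 3.69%, 5.51% and 2.50% of the reads in NT and 2.96%, 3.35% and 1.56% under UV-B. tRNA-Gly-GCC took 11.4%, 13.5% and 7.11% and then 8.75%, 10.6% and 5.27%, and tRNA-Gly-TCC took 6.08%, 4.38% and 3.21% and then 2.86%, 4.67% and 2.72%. Before scaling the groups did not overlap for 5 of 48 isoacceptors (10.4%), none of them glycine. In both groups library 3 had the lowest share of tRNA-Gly-CCC, tRNA-Gly-GCC and tRNA-Gly-TCC. The TMM-scaled log2 differences were −0.62 (95% interval −1.43 to 0.20), −0.43 (−1.21 to 0.35) and −0.46 (−1.24 to 0.32), each with an adjusted p of 0.546 in limma, and that of Gly combined was −0.47 (adjusted p = 0.624 in limma). Among all isoacceptors 0 of 48 passed in limma (0%), with 4 at an unadjusted p below 0.05, 0 of 21 amino acids passed (0%), with 2 at an unadjusted p below 0.05, and the groups did not overlap for 2 of 48 isoacceptors (4.17%), neither of them glycine.

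**Figure D5:**
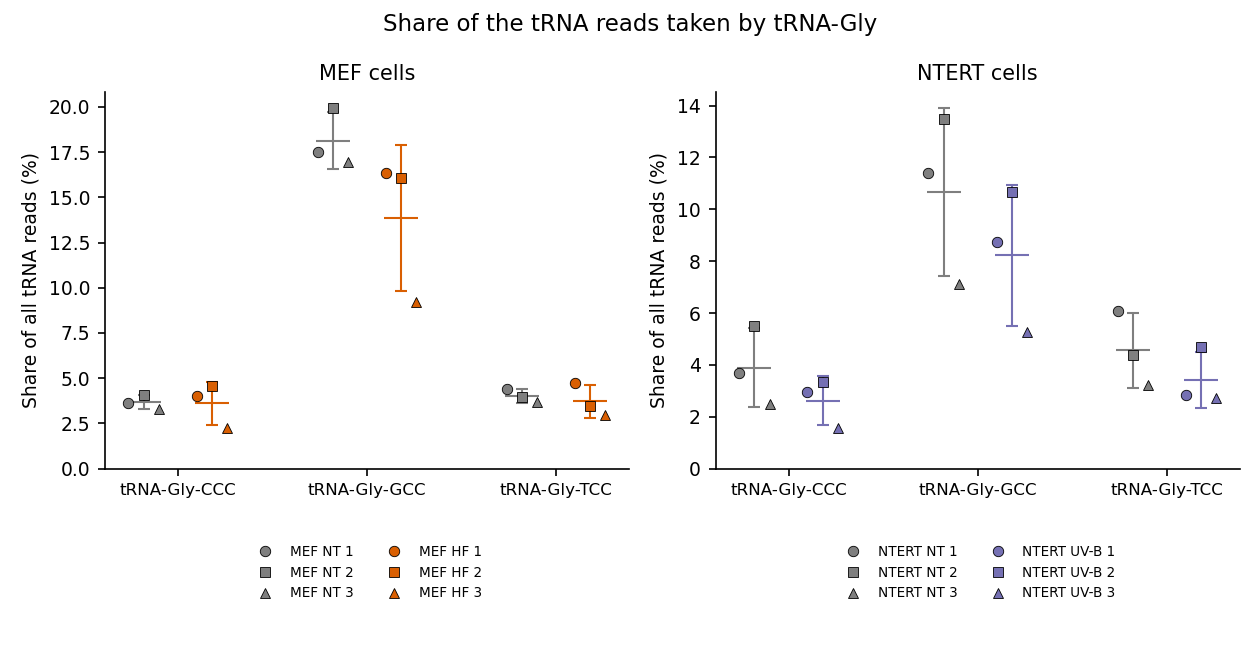
Share of all tRNA reads (y axis, percent, from 0) taken by each glycine isoacceptor, before scaling, with a point for each library and bars for the mean ± SD of 3 libraries. tRNA-Gly-GCC has the largest share in every library, from 9.19 to 19.9% in MEF and from 5.27 to 13.5% in NTERT cells, and the UV-B libraries overlap the NT libraries for all 3 isoacceptors.

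Among glycine tRNA reads alone, the mix of the 3 isoacceptors was described with no test. tRNA-Gly-GCC made up 70.2% ± 1.56 of them in NT and 65.2% ± 1.49 (SD, n = 3 each) in HF libraries of MEF cells, and tRNA-Gly-CCC 14.2% ± 0.43 and 16.9% ± 1.75 (SD, n = 3 each). tRNA-Gly-TCC made up 15.6% ± 1.60 and 17.9% ± 3.17 (SD, n = 3 each). In NTERT cells tRNA-Gly-GCC made up 55.7% ± 1.91 in NT and 57.4% ± 2.47 (SD, n = 3 each) under UV-B, tRNA-Gly-CCC 20.2% ± 3.13 and 18.2% ± 2.00 (SD, n = 3 each), and tRNA-Gly-TCC 24.2% ± 5.04 and 24.4% ± 4.47 (SD, n = 3 each).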

How the data were processed

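Per the labels and the study's methods, the authors separated reads by barcode, trimmed them (cutadapt in the methods, Trim Galore in the submitters' processing notes) and aligned them with bowtie2 to unique tRNA gene sequences with CCA appended, from gtRNAdb for human cells. The mouse reference, and whether duplicates were removed from it, is not given in the sources used here. The files as deposited hold whole numbers, taken as raw counts, for every tRNA gene, with 3 unnamed numbers per line read as all, charged and uncharged reads, from the methods and the layout. Unaligned reads and yeast tRNA were left out. Libraries are numbered as in the labels; the names of the NTERT files carry numbers higher by 1 in both groups, so same-numbered libraries stay the same.

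Reads were summed by gene, isoacceptor and amino acid in Python 3.11.15 with pandas 2.3.3, numpy 2.4.6 and scipy 1.17.1. Differences were tested within a cell type, 3 libraries against 3, with limma 3.58.1 (lmFit, eBayes) in R 4.3.3 on log2 ratios with 0.5 added, or for the share of reads on log2 TMM-scaled CPM (trims of 30% and 5%), over all isoacceptors, amino acids or genes with a mean of at least 50 reads (with an end, for charging). The p-values were adjusted by Benjamini-Hochberg with a threshold of 0.05. In limma the variance is shared over all features of a fit. For charging in MEF cells every isoacceptor thus had the same standard error, 0.73. The isoacceptors of a MEF library shifted together, so such p-values can be too small for a design of 3 libraries against 3. The count model planned for the share of reads was replaced by limma, because no header let the unit be checked automatically. The fits were checked for the recovery of planted changes in simulated counts, with noise drawn independently for each gene. No shift of whole libraries was simulated, so this check does not show that the p-values hold in MEF cells. Mouse loci came from RefSeq and GENCODE annotations of GRCm38.

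Members and lists were chosen with earlier results of these data known. Named were the 3 isoacceptors and Gly combined, glycine genes above the minimum (at most 3 per isoacceptor with full values), the 3 isoacceptors of other amino acids nearest in percentage charged to each glycine isoacceptor, and the serine and class II lists by counts. Alternatives were other pseudocounts, minimums, scalings and models, removal of the library median, leaving out each library and a replicate block. Depth ran from 253693 to 6286863 tRNA reads per library. Figures were drawn with matplotlib 3.10.9.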

Additional observations from a re-analysis of the deposited data

How the results depend on the processing

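Over 24 values (the differences of the glycine isoacceptors and Gly combined, and the number of glycine genes called), 251 of the 280 alternative results kept direction and side of the threshold. With the library median removed, charging in MEF cells was −0.049, −0.15, −0.12 and −0.16 for tRNA-Gly-CCC, tRNA-Gly-GCC, tRNA-Gly-TCC and Gly combined, also with the replicate block. Under the same setting, the reads with an end in MEF cells differed by 0.23, 0.29 and 0.14 and no longer passed, and those of tRNA-Gly-GCC and tRNA-Gly-TCC in NTERT cells were −0.091 and −0.10. The shares of tRNA-Gly-CCC and tRNA-Gly-TCC in MEF cells were −0.085 and −0.13 on library totals, −0.061 and −0.11 under median-of-ratios scaling (chosen after seeing the data), and −0.069 and −0.13 from reads with an end only. The cause was not tested.

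With each library left out, charging in MEF cells ranged from 0.82 to 1.75, 0.65 to 1.69, 0.76 to 1.69 and 0.70 to 1.70 in the same order, the shares of tRNA-Gly-CCC and tRNA-Gly-TCC from −0.26 to 0.26 and −0.39 to 0.11, and the reads with an end from 1.09 to 1.48 for tRNA-Gly-CCC and 1.01 to 1.36 for tRNA-Gly-TCC, and 0 to 1 mouse glycine genes were called. Charging of tRNA-Gly-CCC in NTERT cells ranged from −0.12 to 0.50.

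The numbers were not taken to pair the libraries, since for no measure did all 3 same-numbered pairs correlate above 0.1. For charging the correlations were −0.11 to −0.033 in MEF and −0.49 to 0.024 in NTERT cells, and for reads with an end 0.041 to 0.14 and −0.35 to 0.36. For the share they were −0.34 to 0.16 in MEF cells, and in NTERT cells 0.59 and 0.53 for numbers 2 and 3 but −0.31 for number 1. The crossed pairs of numbers 2 and 3 gave −0.59 and −0.71 for the share in NTERT cells, so a pairing of these libraries was not settled. A replicate block left the charging of tRNA-Gly-CCC in MEF cells at 1.31 (adjusted p = 0.268 in limma) and changed no glycine call. With it, isoacceptors called for charging in MEF cells went from 9 to 0. That number was 3 with the library median removed, 0 with quasi-binomial regression or the test named in the methods, and 0 to 22 with a library left out. Isoacceptors called for their share in MEF cells went from 7 to 1 on library totals or median-of-ratios scaling, 3 from reads with an end, 4 with no minimum and 1 to 9 with a library left out. With reads with an end, they went from 38 to 24 without NT library 2. For genes, 20 became 0 to 64 with a library left out. The planned edgeR model was not run, and neither was DESeq2, since no header let the unit of the files be checked automatically. In NTERT cells depth limits the genes with few reads.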
